A study of Mus musculus with 36 samples.

Results

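Serotonin acts on brain cells through a family of receptors, and 10 genes of that family were followed in mouse anterior cingulate cortex (aCC): Htr1a, Htr1b, Htr1d, Htr1f, Htr5a, Htr2a, Htr2c, Htr4, Htr7 and Htr3a. They were picked by name from the family, by matching symbols to the gene identifiers of the deposited table, and make up 10 of its 52636 genes. The same table held 4 more receptor genes, Htr2b, Htr3b, Htr5b and Htr6, which are given by level only. RNA came from needle punches of the right aCC of 36 female mice, 8 to 11 weeks old, with 1 library per mouse. Values are TPM, an abundance per transcript length relative to the total of the library, so levels can be compared between genes.

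Mice were wild type (WT) littermates or carried 1 deleted allele of Brd1 (Brd1+/-), a gene for a bromodomain scaffold protein of complexes that acetylate histones. In these C57BL/6NTac mice the targeted allele lacked exons 3 to 5 in every cell, so the genotype is not confined to the cortex. WT mice on vehicle (saline) gave 8 libraries, Brd1+/- mice on vehicle 9, WT mice on imipramine (IMN) 10 and Brd1+/- mice on IMN 9. IMN, a tricyclic antidepressant that blocks the reuptake of serotonin and noradrenaline, was injected subcutaneously at 10 mg/kg on consecutive days. All groups, the vehicle groups included, had been through tail suspension, open field and forced swim tests, and brains were taken shortly after the swim. Each group is therefore a group of behaviourally tested mice, and no untested mice were compared here. The mRNA of Brd1 differed by -0.64 between Brd1+/- and WT mice on vehicle and by -0.45 on IMN, as differences in log2(TPM + 0.5), the scale of every change given below. The limma adjusted p of these differences was 0.062 on vehicle and 0.882 on IMN, so the targeted gene itself failed the correction in both comparisons. Over both treatments Brd1 fell by 0.54 (95% confidence interval -0.68 to -0.41, limma adjusted p = 2.83e-05), and all 18 Brd1+/- libraries lay below the WT mean of their treatment. Counts of libraries above or below a group mean, here and below, compare values with means on this log2 scale.

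Serotonin reaches the cortex along axons from the raphe nuclei of the brainstem, and cortical cells answer it according to the receptors they carry. Htr1a, Htr1b, Htr1d, Htr1f and Htr5a encode receptors that couple to inhibitory Gi/o proteins. The products of Htr2a and Htr2c couple to Gq and raise intracellular calcium, those of Htr4 and Htr7 couple to Gs and raise cAMP, and Htr3a encodes a subunit of a serotonin-gated cation channel. In cortex Htr2a is known from pyramidal cells, Htr3a from a class of interneurons that lie mostly in the upper layers, and Htr1f from deep layer neurons.

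The levels split the family into abundant and scarce members. Over the 36 libraries the median level was 14.0 TPM for Htr2a, 10.2 TPM for Htr5a, 8.19 TPM for Htr1b, 7.93 TPM for Htr2c and 7.53 TPM for Htr3a. Htr1a followed with a median of 5.37 TPM and Htr7 with 4.52 TPM. The remaining members were scarce: 1.13 TPM for Htr1f, 0.489 TPM for Htr4 and 0.169 TPM for Htr1d. All 10 were above 0 in every library. Neighbours in this order were measured in the same libraries, which an overlap of mean ± SD leaves aside. Mean ± SD over the libraries overlapped for 8 of the 9 neighbouring pairs. Htr7 and Htr1f were the exception, with Htr7 higher in 33 of 36 libraries. Within libraries, Htr2a exceeded Htr5a in 30 of 36 and Htr1f exceeded Htr4 in 30 of 36. Htr5a exceeded Htr1b in 26, and Htr1b exceeded Htr2c in only 23.

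Summed over the 10 members, receptor mRNA came to 59.6 ± 5.36 TPM (SD, n = 8) in WT vehicle, 64.9 ± 9.65 TPM (n = 9) in Brd1+/- vehicle, 63.0 ± 7.93 TPM (n = 10) in WT IMN and 64.8 ± 12.04 TPM (n = 9) in Brd1+/- IMN. Of the other receptors, Htr6, which couples to Gs, had a median of 5.26 TPM, within the range of the abundant members. Htr5b, a paralog of Htr5a, had a median of 1.43 TPM. The Gq-coupled receptor gene Htr2b had a median of 0.095 TPM and was above 0 in 24 of 36 libraries. Htr3b, a further subunit of the channel formed with Htr3a, was listed at 0 in all 36 libraries. The genes that define serotonin neurons were near the floor of the table, with the reuptake transporter Slc6a4, a target of IMN, listed at 0 in every library. The raphe transcription factor Fev was above 0 in 1 library, and the synthesis enzyme Tph2 had a median of 0.225 TPM.

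**Figure D1:**
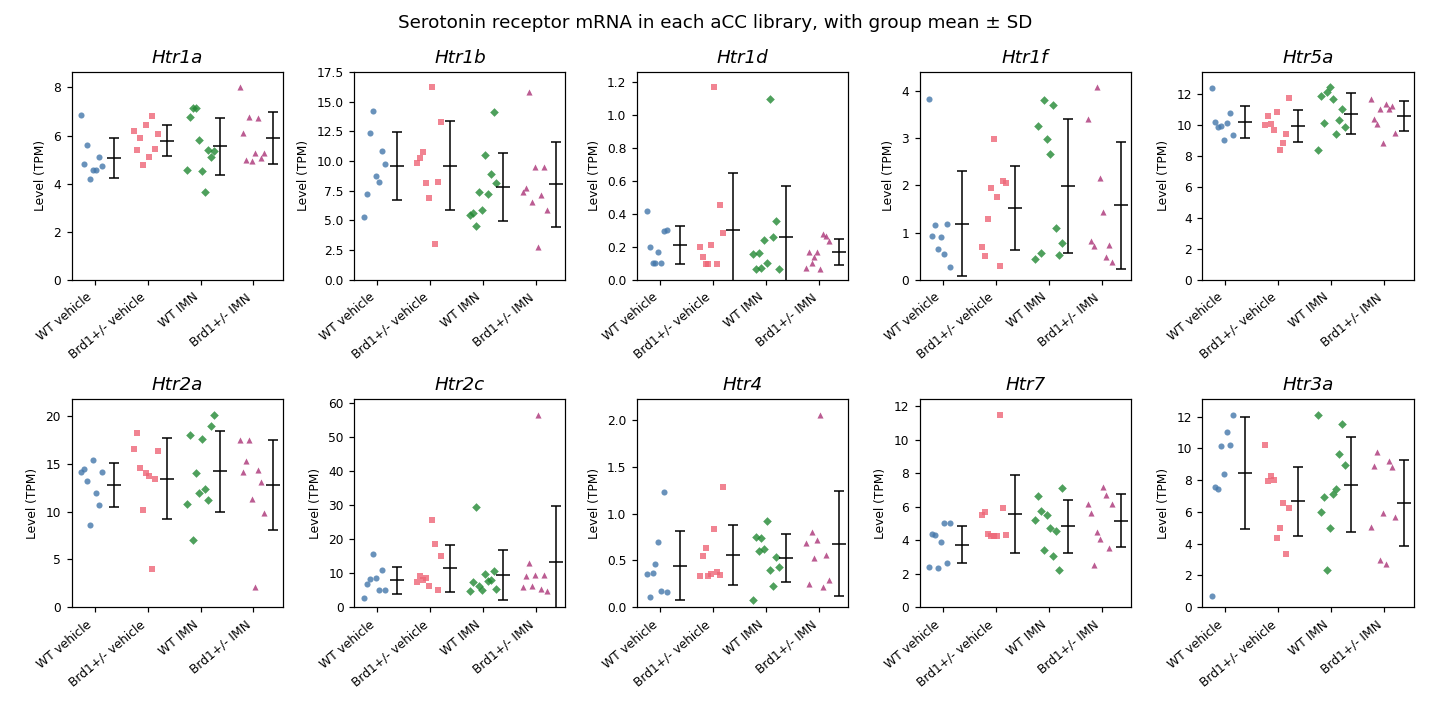
Level (TPM, linear axis from 0) of each receptor gene in each of the 36 aCC libraries, with 1 panel per gene and its own scale. Points are libraries by group, black marks are group means with SD bars (cut at 0 where longer), and the groups overlap in every panel, with single libraries far out for Htr2c (56.6 TPM in Brd1+/- IMN), Htr2a (2.097 TPM in the same library) and Htr7 (11.5 TPM in Brd1+/- vehicle).

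TPM keep no record of depth, so the counting error of a low gene such as Htr1d is unknown, and the error used here is the spread between mice. Cortical markers were present. Medians of at least 1 TPM were found for 6 of 6 upper layer, 7 of 7 deep layer and 7 of 7 interneuron genes. The same held for 8 of 10 striatal genes but for 0 of 8 choroid plexus genes. This threshold thus sets the punches apart from choroid plexus but not from striatum. For each marker list a score was formed in every library by averaging log2(TPM + 0.5) over its genes, and 3 libraries stood apart from their group on at least 2 of 12 lists. Brd1+/- vehicle library 6 had a striatal score of 5.92 against 2.42 to 3.02 in the rest of its group, and a choroid plexus score of 4.95 against -0.84 to -0.21. Brd1+/- IMN library 6 had the highest dentate gyrus score, 1.27 against -0.07 to 0.43 in its group, and low striatal and microglia scores. That dentate score was carried by C1ql2, at 20.1 TPM against a median of 0.487 TPM over all libraries, and to a lesser extent by Prox1 (5.52 against 3.53 TPM), whereas Dsp was listed at 0 and Lct was at 0.047 TPM, under its median of 0.154 TPM. WT vehicle library 1 had an upper layer score of 4.57 against 5.46 to 5.95 and an immediate-early gene score of 5.02 against 5.99 to 6.61. Some differences moved by more than 1.5 times without one of these libraries, and the larger of these differences are given without it as well.

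Htr2a, Htr2c and Htr1b departed together in 3 libraries described below, and the stretches before their start sites are shown here so that the windows can be compared. Each is bases 250 to 51 before the RefSeq start (assembly GRCm38.p6), read 5′ to 3′ on the strand of the gene, with every CpG in capitals.
Htr2a, plus strand, chr14:74640624-74640823: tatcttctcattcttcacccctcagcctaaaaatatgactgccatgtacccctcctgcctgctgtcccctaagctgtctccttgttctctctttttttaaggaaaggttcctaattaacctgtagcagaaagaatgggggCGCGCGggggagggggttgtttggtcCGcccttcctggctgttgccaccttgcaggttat
Htr2c, plus strand, chrX:146962263-146962462: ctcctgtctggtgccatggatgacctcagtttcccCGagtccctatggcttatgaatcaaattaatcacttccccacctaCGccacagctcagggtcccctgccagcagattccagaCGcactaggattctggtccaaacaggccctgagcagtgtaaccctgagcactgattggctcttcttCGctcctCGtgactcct
Htr1b, minus strand, chr9:81633883-81634082: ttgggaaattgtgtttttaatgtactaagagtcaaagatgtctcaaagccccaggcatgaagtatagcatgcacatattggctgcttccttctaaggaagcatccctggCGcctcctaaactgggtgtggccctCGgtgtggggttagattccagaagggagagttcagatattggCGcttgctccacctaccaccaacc

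The 3 windows lie outside the annotated genes. In the same build (GENCODE M21) Htr2a spans 74640840 to 74709494 of chromosome 14, Htr2c spans 146962513 to 147197277 of chromosome X, and Htr1b spans 81628291 to 81633828 of chromosome 9. Their GC content was 51% for Htr2a, 54.5% for Htr2c and 49.0% for Htr1b, and they held 4, 5 and 3 CpG, against medians of 51.5% and 4 over all 32851 windows of the same length. Searched on both strands, none of the 3 held TGACG (the half-site of the cAMP response element), TATAAA (the TATA box) or CACGTG (an E-box). These letters stood in 12.72%, 9.14% and 4.34% of all windows, respectively. Bases closer to the start than 51 were not searched, so a TATA box there would not be seen. Windows were found for 8 of the 10 members, 9 windows in all, and Htr7 alone held TGACG, 87 bases before its start, in a window of 81.5% GC. None of these matches was linked to a measurement of factor binding.

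Htr2a, the main Gq-coupled receptor of cortical pyramidal cells, ran from 8.55 through a median of 13.7 to 15.4 TPM in WT vehicle. In Brd1+/- vehicle it ran from 4.00 through 14.0 to 18.3 TPM, in WT IMN from 7.08 through 13.2 to 20.2 TPM, and in Brd1+/- IMN from 2.097 through 14.2 to 17.5 TPM. The medians lay close together, and the 3 lowest values came from 3 different groups. Htr2c, the other Gq-coupled receptor and one whose mRNA is recoded by RNA editing, ran the other way in those libraries. Its lowest, median and highest levels were 2.75, 7.47 and 15.7 TPM in WT vehicle and 4.95, 8.51 and 25.7 TPM in Brd1+/- vehicle. On IMN they were 4.85, 7.47 and 29.4 TPM in WT and 4.73, 9.28 and 56.6 TPM in Brd1+/-.

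In 3 libraries Htr2c was high while Htr2a was low. Brd1+/- IMN library 6 had 56.6 TPM of Htr2c and 2.097 TPM of Htr2a. WT IMN library 3 had 29.4 and 7.08 TPM, and Brd1+/- vehicle library 7 had 18.5 and 4.00 TPM. These were the lowest Htr2a levels of all 36 libraries. Htr1b, a Gi/o-coupled receptor known from axon terminals, was also the lowest of its group in all 3, with 2.73, 4.50 and 3.00 TPM. Htr7 was the highest of its group in 2 of the 3, with 7.16 TPM in Brd1+/- IMN library 6 and 11.5 TPM in Brd1+/- vehicle library 7. Another library with high Htr2c, Brd1+/- vehicle library 6 at 25.7 TPM, did not have this pattern: Htr2a was 13.7 TPM and Htr1b 16.2 TPM, the highest Htr1b level measured. That is the library with high striatal and choroid plexus scores. The dentate gyrus marker C1ql2 was highest in Brd1+/- IMN library 6 (20.1 TPM), Brd1+/- vehicle library 7 (5.06 TPM) and WT IMN library 3 (2.43 TPM). It was next highest in Brd1+/- vehicle library 6 (1.90 TPM). In the first 3, Prox1 was at 5.52, 2.33 and 4.40 TPM against a median of 3.53 TPM. Dsp was listed at 0 in those 3, and Lct was under its median in each. The part of other tissue in these levels was not tested.

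The genes most like Htr2c over the 36 libraries, with group means removed, were Cbln1 (Pearson r = 0.74), Kcnab1 (r = 0.72) and Sncaip (r = 0.71). Cbln1, a secreted synaptic organizer, was at 51.2, 17.0 and 16.4 TPM in Brd1+/- IMN library 6, WT IMN library 3 and Brd1+/- vehicle library 7, against a median of 4.14 TPM. Most like Htr2a were Erc2 (r = 0.88), an active zone protein, Frrs1l (r = 0.86), an auxiliary protein of AMPA receptors, and Kcnt2 (r = 0.84), a sodium-activated potassium channel. Erc2 was at 24.0, 48.0 and 31.5 TPM in the same 3 libraries against a median of 68.2 TPM. The likeness is a description over 36 libraries that share tissue, and the genes were ranked among 17672 candidates for it.

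Across all libraries Htr2c and Htr2a were negatively related (group means removed, Pearson r = -0.63, permutation p = 0.00278, adjusted 0.0208; Spearman rho = -0.24, permutation p = 0.170, adjusted 0.347). Without Brd1+/- IMN library 6 and WT IMN library 3, the 2 farthest out in Htr2c, r was -0.28. Within groups r was -0.66 in WT vehicle, -0.37 in Brd1+/- vehicle, -0.46 in WT IMN and -0.85 in Brd1+/- IMN, so the sign was the same in each, while the size of the pooled value depends on those 2 libraries. Htr2a and Htr1b were positively related (r = 0.64, permutation p = 0.00124, adjusted 0.0139; rho = 0.36, permutation p = 0.0370, adjusted 0.151), and r was 0.29 without the 2 libraries lowest in Htr2a. Within WT vehicle alone that relation had the opposite sign (r = -0.65, n = 8), while it was 0.84, 0.66 and 0.76 in the other 3 groups. Of all 45 pairs of members, 3 kept both adjusted p under 0.05: Htr1f with Htr3a, Htr1b with Htr7, and Htr2c with Htr4. Their values are given with each gene below.

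**Figure D2:**
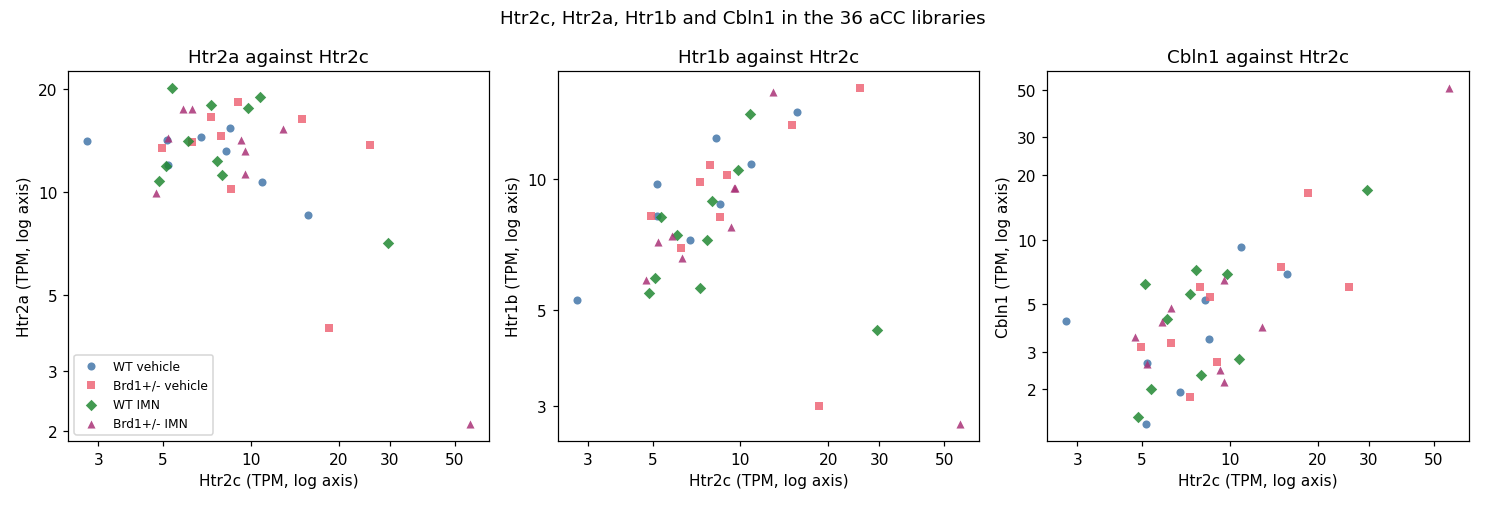
Htr2a, Htr1b and Cbln1 (vertical log axes, TPM) against Htr2c (horizontal log axis, TPM) in the 36 libraries, coloured by group. The 3 libraries with Htr2c of 18.5, 29.4 and 56.6 TPM lie below the rest in Htr2a and Htr1b and above the rest in Cbln1, and another at 25.7 TPM does not.

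For the genotype question, Htr2c differed by +0.34 between Brd1+/- and WT mice over both treatments (95% confidence interval -0.19 to 0.86, limma adjusted p = 0.999). Without the 3 libraries that stood apart on marker scores this was +0.01, with array weights +0.16, and without Brd1+/- IMN library 6 alone +0.18. With IMN, over both genotypes, Htr2c differed by +0.05 (-0.48 to 0.58, adjusted p = 0.980). Htr2a differed by -0.13 with genotype (-0.52 to 0.25, adjusted p = 0.999; +0.0134 without Brd1+/- IMN library 6 and -0.0464 without Brd1+/- vehicle library 7) and by -0.02 with IMN (-0.40 to 0.37, adjusted p = 0.991). None of these 4 differences passed the test. The interval of Htr2c with IMN reached from 28.2% lower to 49.0% higher (of TPM + 0.5).

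Htr7, the abundant Gs-coupled receptor, gave the smallest p-value of any member in a comparison of groups. In WT vehicle it ran from 2.35 through a median of 4.10 to 5.02 TPM, and in Brd1+/- vehicle from 4.23 through 4.38 to 11.5 TPM. The groups overlapped, but all 9 Brd1+/- libraries lay above the WT mean, and 3 WT libraries (1, 4 and 7) were low at 2.35 to 2.63 TPM. On IMN the ranges were 2.23, 4.99 and 7.11 TPM in WT and 2.51, 5.64 and 7.16 TPM in Brd1+/-, with overlap throughout. Means were 3.74 ± 1.13 TPM (SD, n = 8) in WT vehicle, 5.57 ± 2.34 TPM (n = 9) in Brd1+/- vehicle, 4.82 ± 1.56 TPM (n = 10) in WT IMN and 5.16 ± 1.58 TPM (n = 9) in Brd1+/- IMN.

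On vehicle, Htr7 differed by +0.50 in Brd1+/- against WT mice (95% confidence interval 0.08 to 0.91, two-sided exact permutation p = 0.0240). The adjusted p over all genes was 1.00 with limma, so the difference fails the correction. The background in the same comparison was 3.75% of all 25572 genes at an unadjusted limma p under 0.05 and 0.00% at an adjusted p under 0.05. Among the 10 members 1, Htr7, was under the unadjusted threshold and 0 under the adjusted one. Leaving out single libraries moved the difference between +0.36 (without Brd1+/- vehicle library 7, unadjusted p = 0.0342) and +0.56. Over 13 alternatives it ran from +0.31 (array weights, unadjusted limma p = 0.0707) to +0.66 (unadjusted limma p = 0.000455, adjusted p = 0.683). The latter came from a fit holding the upper and deep layer scores, a setting added after the data were seen. A fit holding the oligodendrocyte and striatal scores gave +0.59 (unadjusted limma p = 0.0120, adjusted p = 0.980). On IMN the difference was +0.09 (-0.32 to 0.51), and the interaction of genotype and IMN was -0.40 (-0.99 to 0.18, unadjusted p = 0.173), so the vehicle and IMN differences were not shown to differ. Over both treatments Htr7 differed by +0.28 (-0.01 to 0.58, permutation p = 0.0658, adjusted p = 0.999) and was higher than the WT mean of its treatment in 14 of 18 Brd1+/- libraries. With IMN over both genotypes it differed by +0.11 (-0.19 to 0.41, adjusted p = 0.884), and by +0.0297 without the 3 libraries apart. That value ran from +0.0669 without WT vehicle library 4 to +0.181 without Brd1+/- vehicle library 7, and was +0.0681 without WT vehicle library 1.

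Htr7 moved with interneuron markers from library to library. Its level rose with the interneuron score (r = 0.60, permutation p adjusted over 120 relations = 0.0024; rho = 0.63, adjusted p = 0.00213), and r was 0.55 without the 2 libraries farthest out in that score. Within groups r was 0.83 in WT vehicle, 0.38 in Brd1+/- vehicle, 0.56 in WT IMN and 0.64 in Brd1+/- IMN. Among all tested genes 0.602% had an r as far from 0. The interneuron score spanned 6.47 to 7.03 in WT vehicle and 6.72 to 7.07 in Brd1+/- vehicle, and the 3 WT vehicle libraries with low Htr7 had scores of 6.73, 6.47 and 6.58. Its part in the genotype difference was not tested. Htr7 was also lower where deep layer markers were higher (r = -0.47, adjusted p = 0.0318; rho = -0.49, adjusted p = 0.0326). It fell as Htr1b rose (r = -0.63, permutation p adjusted over 45 pairs = 0.00337; rho = -0.53, adjusted p = 0.0229; r = -0.48 without the 2 libraries farthest out in Htr7). Within groups that r was -0.81 in Brd1+/- vehicle, -0.62 in WT IMN and -0.82 in Brd1+/- IMN, but -0.04 in WT vehicle. In bulk tissue fewer cells of a type and less RNA per cell cannot be told apart, here and in every marker relation below. The genes most like Htr7 were Nrep (r = 0.78), Pip5k1b (r = 0.77) and Lamp5 (r = 0.77), and Lamp5 is itself one of the upper layer markers.

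Htr4, the scarce Gs-coupled receptor, ranged from 0.078 to 2.06 TPM over all libraries, and its highest value came from Brd1+/- IMN library 6. Group means were 0.442 ± 0.371 TPM (SD, n = 8) in WT vehicle, 0.560 ± 0.323 TPM (n = 9) in Brd1+/- vehicle, 0.529 ± 0.255 TPM (n = 10) in WT IMN and 0.679 ± 0.562 TPM (n = 9) in Brd1+/- IMN. The groups overlapped, and Htr4 differed by +0.17 with genotype (95% confidence interval -0.14 to 0.47, adjusted p = 0.999) and by +0.13 with IMN (-0.17 to 0.43, adjusted p = 0.857). Without the 3 libraries apart on marker scores the genotype value was +0.05 and the IMN value +0.07. Without Brd1+/- IMN library 6 alone they were +0.0876 and +0.0551. Htr4 rose with Htr2c (r = 0.61, permutation p adjusted over 45 pairs = 0.0066; rho = 0.57, adjusted p = 0.011; r = 0.46 without the 2 libraries highest in Htr4). It was higher where deep layer markers were higher (r = 0.54, adjusted p = 0.00736; rho = 0.64, adjusted p = 0.001) and lower where upper layer markers were higher (r = -0.51, adjusted p = 0.0206; rho = -0.55, adjusted p = 0.0111).

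Among the Gi/o-coupled members Htr5a and Htr1a were the steadiest. Htr5a ran from 9.03 through a median of 10.0 to 12.4 TPM in WT vehicle, from 8.37 through 9.98 to 11.7 TPM in Brd1+/- vehicle, from 8.40 through 10.7 to 12.4 TPM in WT IMN and from 8.81 through 11.0 to 11.7 TPM in Brd1+/- IMN. All 36 libraries thus lay within 8.37 to 12.4 TPM. The SD between libraries of a group was 0.15 on the log2 scale, and 6.75% of 1452 genes of like level had a smaller one. Its change was -0.03 with genotype (-0.13 to 0.08, adjusted p = 0.999) and +0.07 with IMN (-0.03 to 0.18, adjusted p = 0.716). The interval for IMN covers a level 2.12% lower to 13.2% higher (of TPM + 0.5), the narrowest of the members. Htr5a was lower where astrocyte markers were higher (r = -0.53, adjusted p = 0.0134; rho = -0.46, adjusted p = 0.0493), and the genes most like it were Hspa12a (r = 0.79), Atrnl1 (r = 0.78) and Vps41 (r = 0.77).

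Htr1a, the receptor known for hyperpolarizing pyramidal cells and, on raphe neurons, for restraining serotonin release, had higher means in Brd1+/- than in WT mice under both treatments, a difference that failed the correction. It ran from 4.21 through a median of 4.78 to 6.84 TPM in WT vehicle and from 4.78 through 5.92 to 6.82 TPM in Brd1+/- vehicle. On IMN it ran from 3.67 through 5.37 to 7.15 TPM in WT and from 4.94 through 5.28 to 8.01 TPM in Brd1+/-. WT vehicle library 1, one of those apart on marker scores, gave the highest WT vehicle value, and the vehicle groups overlapped. On vehicle Htr1a differed by +0.18 (95% confidence interval -0.02 to 0.39, two-sided exact permutation p = 0.0495, 8 of 9 libraries above the WT mean), with an adjusted p of 1.00 in limma. The unadjusted limma p was 0.0755. Without the 3 libraries apart, a setting added after the data were seen, the difference was +0.26 (unadjusted limma p = 0.00963, adjusted p = 0.702). With a replicate block it was +0.18 (unadjusted limma p = 0.110), and without WT vehicle library 4 it was +0.15 (unadjusted limma p = 0.147). On IMN the difference was +0.09, with 4 of 9 Brd1+/- libraries above the WT mean. Over both treatments it was +0.14 (-0.02 to 0.29, permutation p = 0.0769, adjusted p = 0.999), with 12 of 18 Brd1+/- libraries above the WT mean of their treatment. IMN gave +0.06 (-0.09 to 0.22, adjusted p = 0.869). Htr1a had no relation with any of the 12 marker lists at both adjusted p under 0.05, and among the genes most like it were Mansc1 (r = 0.78) and Syndig1 (r = 0.72).

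Htr1b had a lower mean with IMN in both genotypes, within the spread. Its lowest, median and highest levels were 5.27, 9.24 and 14.2 TPM in WT vehicle, 3.00, 9.83 and 16.2 TPM in Brd1+/- vehicle, 4.50, 7.34 and 14.1 TPM in WT IMN and 2.73, 7.38 and 15.8 TPM in Brd1+/- IMN. Over both genotypes it differed by -0.28 with IMN (95% confidence interval -0.63 to 0.08, permutation p = 0.137, adjusted p = 0.674), and in 14 of 19 mice on IMN the log2 value was under the mean log2 value of vehicle mice of that genotype. With striatal and oligodendrocyte scores as covariates this value was -0.06. The oligodendrocyte score averaged 4.64 ± 1.17 (SD, n = 8) in WT vehicle, 4.99 ± 0.867 (n = 9) in Brd1+/- vehicle, 5.27 ± 1.19 (n = 10) in WT IMN and 5.18 ± 1.31 (n = 9) in Brd1+/- IMN. Its genotype difference was -0.02 (-0.38 to 0.33, adjusted p = 0.999). Htr1b was lower where oligodendrocyte markers were higher (r = -0.50, adjusted p = 0.0151; rho = -0.45, adjusted p = 0.0493; r = -0.45 without the 2 libraries farthest out in that score). Among the genes most like it were Doc2b (r = 0.91), a calcium sensor of vesicle release, and the kainate receptor gene Grik2 (r = 0.89).

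Htr1f and Htr3a had the most relations with marker scores, with 6 and 7 of the 12 lists at both adjusted p under 0.05, and they moved in opposite directions. Not every list is detailed below. Over all 10 members, microglia markers had 3 such relations, endothelial markers 2 and erythrocyte markers 1. Htr1f had lowest, median and highest levels of 0.270, 0.919 and 3.83 TPM in WT vehicle, 0.287, 1.75 and 2.99 TPM in Brd1+/- vehicle, 0.435, 1.89 and 3.81 TPM in WT IMN and 0.386, 0.821 and 4.08 TPM in Brd1+/- IMN. Each group thus held libraries with little Htr1f and libraries with several times as much. Htr3a had lowest, median and highest levels of 0.718, 9.27 and 12.1 TPM in WT vehicle, 3.37, 6.57 and 10.2 TPM in Brd1+/- vehicle, 2.37, 7.29 and 12.1 TPM in WT IMN and 2.74, 5.91 and 9.79 TPM in Brd1+/- IMN. WT vehicle library 1 had the lowest Htr3a and the highest Htr1f of its group. Over all libraries r between both genes was -0.70 (permutation p adjusted over 45 pairs = 0.00045; rho = -0.69, adjusted p = 0.00225), and -0.66 without the 2 libraries farthest out in Htr3a. It was negative within each group, from -0.92 in WT vehicle to -0.58 in Brd1+/- vehicle.

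Htr1f rose with deep layer markers (r = 0.85, adjusted p = 0.00024; rho = 0.86, adjusted p = 0.00024). An adjusted p of 0.00024 rests on 1e-05, the smallest p that the permutation draws can give. Within the 4 groups r lay between 0.76 and 0.92, and without WT IMN library 7 and WT vehicle library 1 it was 0.82. Of all tested genes 0.282% had an r with that score as far from 0. Htr1f fell as upper layer markers rose (r = -0.77, adjusted p = 0.00024; rho = -0.80, adjusted p = 0.00024) and as astrocyte markers rose (r = -0.83, adjusted p = 0.00024; rho = -0.85, adjusted p = 0.00024). With oligodendrocyte markers, which are dense near the white matter under the deep layers, it rose (r = 0.65, adjusted p = 0.00195; rho = 0.66, adjusted p = 0.0015). The genes most like Htr1f were Sema3e (r = 0.94), a secreted guidance cue, Diras2 (r = 0.93) and Plekha2 (r = 0.93).

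Htr3a gave the reverse picture. It rose with upper layer markers (r = 0.76, adjusted p = 0.000514; rho = 0.64, adjusted p = 0.0015), with r of 0.51 to 0.91 within the groups and 0.62 without WT vehicle library 1 and WT IMN library 4. It fell as oligodendrocyte markers rose (r = -0.73, adjusted p = 0.00024; rho = -0.81, adjusted p = 0.00024) and as deep layer markers rose (r = -0.57, adjusted p = 0.0054; rho = -0.61, adjusted p = 0.00228). With immediate-early genes, which neurons switch on after activity, r was 0.72 (adjusted p = 0.00262; rho = 0.54, adjusted p = 0.0111), and 0.48 without Brd1+/- IMN library 6 and WT vehicle library 1. The immediate-early score itself averaged 6.20 and 6.17 in the WT and Brd1+/- vehicle groups and 5.65 and 5.56 in the WT and Brd1+/- IMN groups, and its part in the Htr3a levels between groups was not tested. Against the interneuron list, which mixes several classes, r was only -0.04 (adjusted p = 0.887; rho = -0.09, adjusted p = 0.739). The genes most like Htr3a were Tac2 (r = 0.95), a neuropeptide gene, Calb2 (r = 0.94), which encodes calretinin, and Glra3 (r = 0.90), a glycine receptor subunit, and Tac2 and Calb2 are known from interneurons. Tac2 and Calb2 were at 5.06 and 3.74 TPM in WT vehicle library 1, against medians of 30.8 and 15.7 TPM over all libraries.

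**Figure D3:**
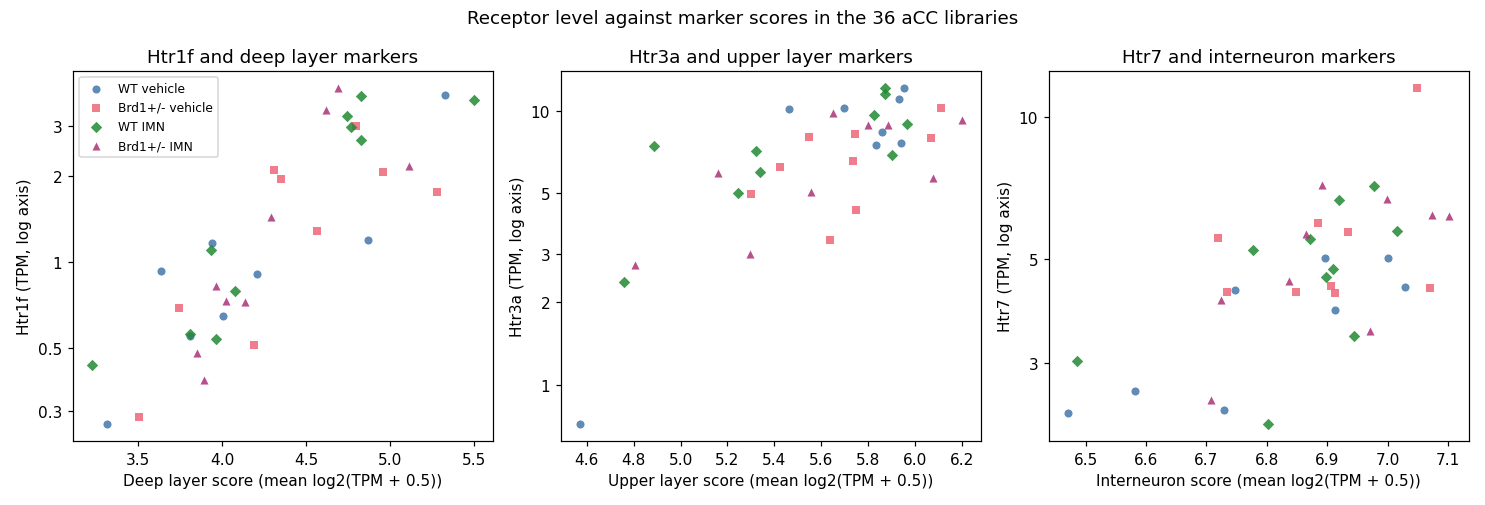
Htr1f against the deep layer score, Htr3a against the upper layer score and Htr7 against the interneuron score in the 36 libraries (scores in mean log2(TPM + 0.5), levels in TPM on log axes), coloured by group. Htr1f climbs along its score in all 4 groups, with 0.270 TPM as the lowest and 4.08 TPM as the highest value over all libraries. In the Htr3a panel 1 WT vehicle library is at the foot with 0.718 TPM.

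Neither gene passed the test for genotype or IMN at this spread. Htr1f differed by +0.01 with genotype (95% confidence interval -0.53 to 0.54, adjusted p = 0.999) and by +0.22 with IMN (-0.31 to 0.76, adjusted p = 0.863). With upper and deep layer scores as covariates, added after the data were seen, the IMN value was +0.10, and without the 3 libraries apart it was +0.35. Without single libraries it ran from +0.15 to +0.32. Htr3a differed by -0.19 with genotype (-0.66 to 0.27, adjusted p = 0.999) and by -0.03 with IMN (-0.50 to 0.43, adjusted p = 0.984). Without WT vehicle library 1, the lowest in Htr3a, the genotype value was -0.37 and the IMN value -0.22. Without Brd1+/- IMN library 6 the genotype value was -0.13. The widths of these intervals follow the spread between mice, which was 0.82 for Htr1f and 0.73 for Htr3a as the SD of log2 values within groups. Of genes of like level, 88.1% and 95.6% had a smaller SD. Htr2c (0.82) and Htr2a (0.60) were as extreme, with 97.5% and 97.1% of like genes below them.

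Htr1d, a Gi/o-coupled receptor that shares its place on axon terminals with Htr1b, was the scarcest member and ranged from 0.066 to 1.17 TPM. Group means were 0.212 ± 0.116 TPM (SD, n = 8) in WT vehicle, 0.304 ± 0.344 TPM (n = 9) in Brd1+/- vehicle, 0.258 ± 0.309 TPM (n = 10) in WT IMN and 0.166 ± 0.079 TPM (n = 9) in Brd1+/- IMN. The highest values came from Brd1+/- vehicle library 6 (1.17 TPM), the library with striatal and choroid plexus markers, and WT IMN library 7 (1.09 TPM). Its differences were -0.01 with genotype (-0.25 to 0.23, adjusted p = 0.999) and -0.08 with IMN (-0.33 to 0.16, adjusted p = 0.894). Without Brd1+/- vehicle library 6 the IMN value was -0.0105.

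**Figure D4:**
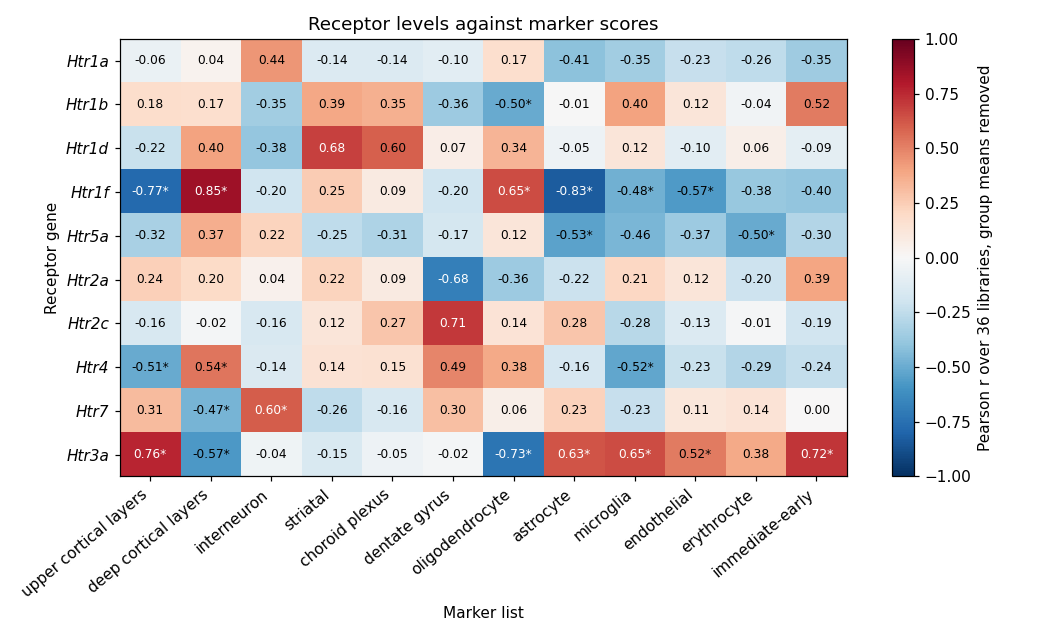
Pearson r of each receptor (rows) with each of 12 marker scores (columns) over 36 libraries after removing group means, on a colour scale from -1 to 1. Stars mark the 21 of 120 relations in which both r and Spearman's rho had a permutation p under 0.05 after adjustment, most of them in the Htr1f (6) and Htr3a (7) rows.

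Over the family, no member passed the correction in any comparison. In limma 0 of 10 had an adjusted p under 0.05 in each of the 4 comparisons of groups, the interaction, and the IMN and genotype effects over all libraries. At an unadjusted p under 0.05 there was 1 (Htr7 on vehicle) in these 7 comparisons, and by exact permutation 2 of 40 tests in the comparisons of groups (Htr7 and Htr1a on vehicle). The exact permutation test was not run over all genes, so its count has no background share and nothing is read from it. Over the alternatives and the fits without single libraries, the unadjusted count ran from 1 to 3 for genotype on vehicle, from 0 to 2 for IMN in WT mice, from 0 to 1 for IMN over both genotypes and from 0 to 2 for genotype over both treatments, and was 0 in the other comparisons. In 0 of the 40 tests in the comparisons of groups did the groups separate without overlap. The share of all genes doing so was not computed, so nothing is read from that count. The background among all genes, as percentages at an adjusted and an unadjusted p under 0.05, was 0.00% and 3.23% for genotype on IMN, 0.00782% and 5.52% for IMN in Brd1+/- mice, 0.00% and 6.60% for IMN in WT mice, and 0.00% and 3.20% for the interaction. For the effects over all libraries it was 0.274% and 9.38% for IMN, and 0.00391% and 3.62% for genotype, where the single gene past the correction was Brd1. In these 6 comparisons the members' counts, all 0 at both thresholds, were not above the background. For genotype on vehicle, 1 of 10 members stood against 3.75% of all genes at the unadjusted threshold, and 1 gene among 10 is too few to show an excess.

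The median change of the 10 members was +0.15 for genotype on vehicle against -0.02 over all genes tested, and -0.01 against 0.01 for genotype on IMN. For IMN it was +0.11 against -0.01 in WT mice and -0.07 against 0.01 in Brd1+/- mice. The comparisons share groups, so these values are not independent of each other. Of the 40 differences in the comparisons of groups, 21 were positive. They ranged from -0.30 (Htr1b, IMN in WT mice) to +0.50 (Htr1f, IMN in WT mice).

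**Figure D5:**
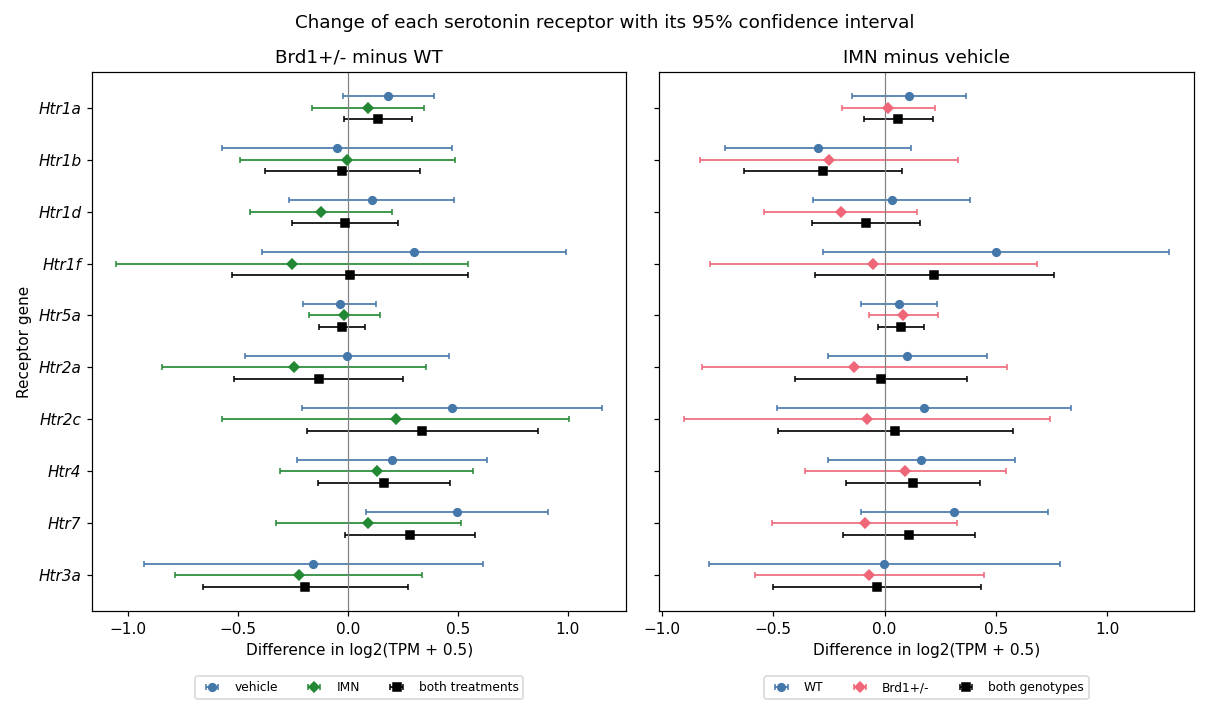
Difference in log2(TPM + 0.5) of each receptor with its 95% confidence interval from limma, for Brd1+/- minus WT (left, by treatment and over both) and IMN minus vehicle (right, by genotype and over both). The interval of Htr7 on vehicle, 0.08 to 0.91, is the 1 of 60 that leaves out 0, and that of Htr5a is the narrowest in every comparison shown.

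Genes that make and clear serotonin or carry the receptor signal onward were taken as 6 lists, of which 39 genes were tested. In the effects of IMN and genotype over all libraries, 0 of them had an adjusted p under 0.05 in limma, and 6 and 1, respectively, had an unadjusted p under 0.05. Of 3 tested other receptors, none had an unadjusted p under 0.05 in either effect, with Htr6 and Htr5b nearest. Among 5 tested genes of serotonin synthesis, storage, uptake and breakdown, the vesicular monoamine transporter gene Slc18a2 differed by -0.25 with IMN (95% confidence interval -0.40 to -0.10, unadjusted p = 0.00224, adjusted p = 0.170) and the other genes were above 0.05. Group means were 3.08 ± 0.350 TPM (SD, n = 8) for WT vehicle, 2.93 ± 0.414 TPM (n = 10) in WT IMN, 3.56 ± 0.816 TPM (n = 9) in Brd1+/- vehicle and 2.48 ± 0.290 TPM (n = 9) in Brd1+/- IMN. The difference with IMN was thus -0.07 in WT and -0.43 in Brd1+/- mice, with an interaction of -0.36 (unadjusted p = 0.0159, adjusted p = 1.00). The highest value, 5.28 TPM, came from Brd1+/- vehicle library 6, without which the difference over both genotypes was -0.21 (unadjusted p = 0.00394, adjusted p = 0.224). For genotype the smallest p in that list belonged to Tph2 and Maob, both above 0.05.

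Of 8 Gi/o transducers and their potassium channels, 2 had lower levels with IMN at an unadjusted p under 0.05. Kcnj9, a channel subunit opened by receptors such as Htr1a, differed by -0.12 (unadjusted p = 0.0123, adjusted p = 0.345), and the G protein gene Gnao1 by -0.12 (unadjusted p = 0.0343, adjusted p = 0.477). Among 8 Gq transducers and effectors there were 0 in either effect. Of 9 Gs transducers and effectors, the adenylyl cyclase gene Adcy1 differed by +0.18 with IMN (unadjusted p = 0.0408, adjusted p = 0.4995) and the G protein gene Gnal by -0.17 (unadjusted p = 0.0409, adjusted p = 0.4995). Without the library with striatal markers Gnal differed by -0.12 (unadjusted p = 0.0820), and without the 3 libraries apart by -0.08 (unadjusted p = 0.237). Among 6 receptor partners and RNA editing genes, the arrestin gene Arrb2 differed by -0.15 with IMN (unadjusted p = 0.0466, adjusted p = 0.520). For genotype S100a10, whose product binds the receptors of Htr1b and Htr4, differed by -0.30 (95% confidence interval -0.52 to -0.09, unadjusted p = 0.00691, adjusted p = 0.999). No other gene of these lists had an unadjusted p under 0.05 in either effect, against a background of 9.38% for IMN and 3.62% for genotype.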

How the data were processed

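RNA from punches of the right aCC was sequenced by the authors on a BGISEQ-500 (50 bp single-end reads). Reads were aligned to GRCm38 with HISAT2 2.1.0 and an Ensembl annotation and quantified with StringTie 1.3.4, and the deposited values are TPM of each gene, not scaled further across libraries. Depth per library is not kept by TPM. Groups were taken from the labels, which name no batch. The 10 receptor genes, the marker and pathway lists and the tests were chosen with earlier results of these data known. All 36 columns were used (0 left out), and 0 pairs of libraries were identical.

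Symbols were found for 52403 of 52636 Ensembl identifiers. Testing was limited to the 25572 genes that reached 0.1 TPM in 8 or more libraries (all 10 members did) as log2(TPM + 0.5), a scale that understates changes of low genes. limma 3.58.1 (R 4.3.3, with a mean-variance trend, two-sided) was fitted over all genes with Benjamini-Hochberg adjustment. Comparisons of groups used the libraries of both groups only. The interaction and the additive effects used all 36. Each library is labelled as its own sample, and by the study's methods each punch was of 1 mouse, so n was taken to count mice. Differences of 2 groups were also tested by exact permutation. Additive effects were tested by 100000 draws within the strata of the other factor, and correlations by 100000 draws within groups (Python 3.11.15, scipy 1.17.1).

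By rule, every member was described, differences of 2 groups were named at an exact permutation p under 0.05 (interaction, an unadjusted limma p under 0.05), pathway genes by the 2 smallest p, and 3 most alike genes per member of at least 1 TPM (for Htr1a and Htr1b, 1 of the 3 is not reported here). Alternatives were pseudocounts of 0.1 and 1, no filter, quantile normalization, median-ratio scaling, only genes averaging 1 TPM or more, TPM without mitochondrially encoded genes, array weights, marker scores as covariates, a replicate block, all libraries in one fit, and leaving out each library. Covariates for cortical layers and leaving out 3 libraries apart on marker scores were added after the data were seen. Promoter windows and motif shares came from RefSeq (GRCm38.p6).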

Additional observations from a re-analysis of the deposited data

Results flagged for a closer look

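In 10 of 40 groups of values (10 members in 4 groups) a single library lay apart from the rest by Dixon's test, which chance gives in about 1 of 20 groups. The 10 values came from 6 libraries. Brd1+/- IMN library 6 gave 3 of them: Htr2c at 56.6 TPM against 4.73 to 12.9 in the other libraries of its group, Htr2a at 2.097 TPM against 9.91 to 17.5, and Htr4 at 2.06 TPM against 0.214 to 0.804. Brd1+/- vehicle library 7 gave Htr2a at 4.00 TPM against 10.2 to 18.3 and Htr7 at 11.5 TPM against 4.23 to 5.94. In WT IMN library 3 Htr2c was at 29.4 TPM against 4.85 to 10.8. WT vehicle library 1 held Htr1f at 3.83 TPM against 0.270 to 1.19 and Htr3a at 0.718 TPM against 7.47 to 12.1. Htr1d was at 1.17 TPM in Brd1+/- vehicle library 6 against 0.095 to 0.453, and at 1.09 TPM in WT IMN library 7 against 0.067 to 0.356. WT IMN library 7 also had the highest oligodendrocyte score of all libraries, 7.39, and the highest deep layer score, 5.50. What sets these libraries apart was not tested.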

How the results depend on the processing

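The count of members at an adjusted p under 0.05 was 0 in all 275 fits, the smallest adjusted p of a member being 0.418 (Htr1b, IMN, without Brd1+/- vehicle library 7), and 8 members had a median of at least 1 TPM under every alternative. Some small uncalled differences turned sign, and the cause was not tested. For IMN, array weights gave Htr2a +0.0071, striatal and oligodendrocyte covariates gave Htr2a +0.14 and Htr3a +0.18, layer covariates gave Htr2a +0.11, Htr2c -0.0315 and Htr3a +0.14, and leaving out the 3 libraries apart on marker scores gave Htr1d +0.0307, Htr2a +0.14 and Htr2c -0.11. For genotype, array weights gave Htr1b +0.0108 and Htr1d +0.0237, the marker covariates gave Htr1f -0.071, the layer covariates gave Htr1f -0.0247, and leaving out those 3 libraries gave Htr2a +0.0176.

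With single libraries left out, the IMN difference spanned -0.11 to 0.12 for Htr2a, -0.10 to 0.13 for Htr2c and -0.22 to 0.0409 for Htr3a. The genotype difference spanned -0.0924 to 0.0576 for Htr1b, -0.0805 to 0.0563 for Htr1d, -0.0715 to 0.10 for Htr1f and -0.18 to 0.0134 for Htr2a. A mean of at least 1 TPM left out Htr1d and Htr4. The replicate numbers were not taken as pairs of mice: same-numbered libraries correlated between -0.31 and 0.32, and at most 2 of 9 pairs of a comparison exceeded 0.1. The study used litter-matched mice, and weak correlations cannot show that same-numbered mice were unrelated. With the number as a replicate block, 0 members passed the correction (2 were under an unadjusted p of 0.05 for IMN in WT mice, against 0 without the block), and over all genes IMN gave 37 calls with the block against 70 without it. The IMN calls over all genes ran from 37 to 191 over the alternatives. TPM keep no depth, so no counting error can be given for the scarce members Htr1d and Htr4.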
